A study of Mus musculus with 12 samples.

Results

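Calcium handling genes encode the proteins that raise cytosolic calcium in the heart muscle cell for contraction and clear it again for relaxation. Calcium entering through L-type channels of the surface membrane opens ryanodine receptors of the sarcoplasmic reticulum (SR), the internal calcium store, and the released calcium drives the sarcomere. The SR pump SERCA2a, which phospholamban inhibits, then refills the store, while the sodium-calcium exchanger carries the remainder out of the cell. Less SERCA2a and slower calcium removal are familiar features of failing hearts.

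The set described here has 38 genes, chosen by name: the SR pump and its regulators, the release unit and luminal proteins, the junctophilins, surface calcium channels, extrusion pumps and the exchanger, IP3 receptors, store-operated and TRPC channels, calcium sensors and kinases, and the mitochondrial uniporter. All 38 were among the 55421 genes of the count table, and 37 passed the filter on low counts. Sln was the one that did not. RNA was sequenced from wild-type mouse ventricles, with 4 libraries in each of 3 groups. The AngII_FI group carried a minipump delivering angiotensin II, a pressor peptide that makes the heart enlarge and scar, and was injected intraperitoneally with Forsythoside I (FI) at 50 mg/kg every other day, from the day before the pump went in until day 14. The AngII group had the same pump with vehicle, and the saline group had saline with vehicle. There was no group with saline and FI. The sources used here give no strain, age or mouse number, so p-values measure the spread between these samples.

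Total counts were 68874852 to 80624227 per library. Values below are CPM, the counts per gene scaled to the library size with TMM factors, and a count of 3 equals 0.0367 to 0.0452 CPM, a floor that covers counting error only. Summed cardiomyocyte markers, 12 sarcomere and muscle genes, were at 43820.0 to 59995 CPM in AngII_FI, 41312 to 49811 CPM in AngII and 45932 to 58527 CPM in saline ventricles. Atrial myocyte markers (8 genes) summed to 25.1 to 27.7 CPM in AngII_FI without library 3, 23.8 to 30.5 CPM in AngII and 32.2 to 33.8 CPM in saline ventricles; among them Myl7 and Bmp10 were at no more than 0.384 and 0.686 CPM in any library. The library AngII_FI 3 stood apart: 15 hepatocyte markers summed to 23729 CPM in it, against 3.78 to 47.5 CPM in the other 11. Of these 11, AngII 3 was the highest, and the rest reached at most 9.07 CPM. The atrial list summed to 161 CPM in AngII_FI 3, of which Stard10 made up 146 CPM. Most fold changes and gene counts that involve AngII_FI are therefore given with and without AngII_FI 3. Counts of genes at an unadjusted p are given with it only.

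The pump and its regulators come first. Atp2a2, which encodes SERCA2 (chr5:122453513-122502225, minus strand, GRCm38), had the highest level per exon length of the 38 genes, at 987 CPM per kb in AngII_FI, 887 in AngII and 1211 in saline ventricles. Its 4 libraries held 5346, 7174, 5398 and 6102 CPM in AngII_FI, 5214, 5089, 5635 and 5646 CPM in AngII and 7137, 6198, 7044 and 9084 CPM in saline ventricles. All 4 AngII values were below all 4 saline values, the highest saline value was in saline 4, and the AngII_FI values overlapped both groups. The log2 fold change was -0.45 ± 0.12 (SE, n = 4 per group) for AngII over saline, with a 95% interval of -0.72 to -0.18 and an edgeR adjusted p of 0.0833, which does not pass the threshold of 0.05. DESeq2 gave the same gene an adjusted p of 0.0159. For AngII_FI over AngII the log2 fold change was 0.15 ± 0.12 (interval -0.11 to 0.42, edgeR adjusted p = 0.712) and 0.20 ± 0.13 without AngII_FI 3. In bulk tissue, fewer cells of a type and less RNA per cell cannot be told apart. Pln encodes phospholamban, the small SR membrane protein that holds the pump back. It had 1255, 1149.9, 932 and 1229 CPM in AngII_FI, 1019, 1120.0, 1121 and 1126 CPM in AngII and 1193, 1238, 1133 and 1341 CPM in saline ventricles. Each AngII library was below each saline library, by little, and AngII 1 and AngII_FI 3 were the lowest of their groups. Fold changes on the log2 scale were -0.16 ± 0.09 for AngII over saline and 0.06 ± 0.09 for AngII_FI over AngII (edgeR adjusted p = 0.444 and 0.883), and 0.14 ± 0.08 for AngII_FI over AngII without AngII_FI 3, when the groups no longer overlapped. Pln is uncertain in one respect, since 59.6% of its exon length is shared with Gm47644 on the opposite strand, which had up to 928 counts in a library, and the strand setting of the counting is not given in the sources used here. Ppp1r1a, the inhibitor of protein phosphatase 1 that keeps phospholamban phosphorylated, averaged 1.31 ± 0.235 CPM in AngII_FI, 1.16 ± 0.230 CPM in AngII and 1.08 ± 0.414 CPM in saline ventricles (mean ± SD, n = 4). Sln encodes sarcolipin, an SR pump inhibitor that in mice is mainly atrial, and had 5 counts in each of 3 saline libraries, 8 counts in AngII_FI 2 and 0 in the other 8, AngII included. No fold change is given for it, because the groups lie near the floor.

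Because cardiomyocyte transcripts as a whole differed between libraries, Atp2a2 was also set against other genes within each library. As a share of the 12 summed cardiomyocyte markers it was 10.4%, 12.2%, 12.3% and 10.2% in AngII_FI, 12.0%, 12.3%, 11.3% and 11.8% in AngII and 13.8%, 13.5%, 14.7% and 15.5% in saline ventricles. Every saline library lay above every library with angiotensin II, and the 2 groups with angiotensin II overlapped. The mean log2 ratio differed by -0.28 for AngII against saline and by -0.35 for AngII_FI against saline (exact two-sided permutation p = 0.0286 for each, the smallest that 4 against 4 can give, and 0.129 adjusted over the 9 ratio tests). AngII_FI against AngII gave -0.08 (exact permutation p = 0.371, adjusted 0.478). Without AngII_FI 3 the difference was -0.40 from saline and -0.12 from AngII (exact permutation p = 0.0571 and 0.229, with 0.0571 the smallest that 3 against 4 can give). The marker sum itself averaged 53511 CPM in AngII_FI, 45596 CPM in AngII and 51032 CPM in saline ventricles, so the ratio also follows the markers. Atp2a2 alone averaged 6005 CPM in AngII_FI and 5396 CPM in AngII, opposite in direction to the ratio, with overlap in both. The Pln to Atp2a2 ratio, often read as the balance of inhibitor to pump, averaged 19.2% ± 3.32 in AngII_FI, 20.3% ± 1.12 in AngII and 16.9% ± 2.21 in saline ventricles (SD, n = 4). Of its 3 comparisons the smallest exact permutation p was 0.114, for AngII against saline (0.321 adjusted), and the groups overlapped. Without AngII_FI 3 its log2 difference was -0.05 for AngII_FI against AngII and 0.23 for AngII_FI against saline, compared with -0.10 and 0.18 with it. The Slc8a1 to Atp2a2 ratio, exchanger to pump, averaged 2.30% ± 0.110 in AngII_FI, 2.47% ± 0.163 in AngII and 2.27% ± 0.287 in saline ventricles. Its exact permutation p values were 0.143 to 0.771.

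**Figure D1:**
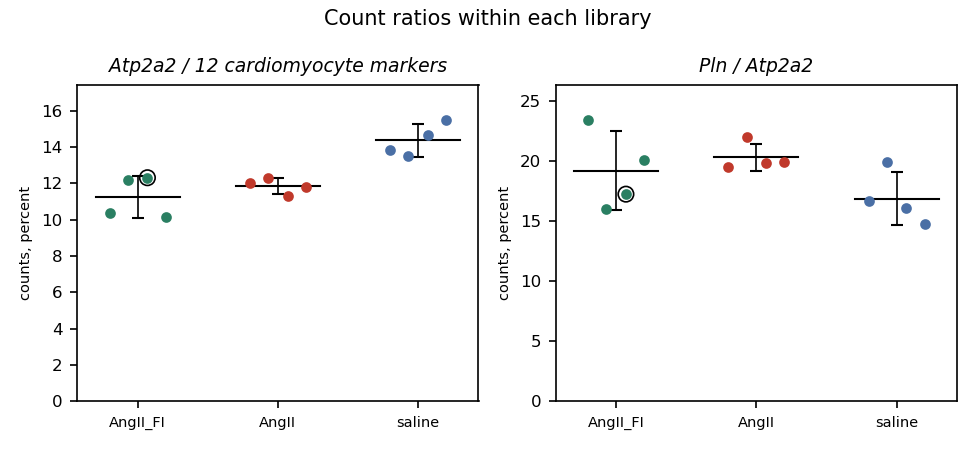
Count ratios within each library, in percent: Atp2a2 over 12 summed cardiomyocyte markers (left) and Pln over Atp2a2 (right), for AngII_FI, AngII and saline ventricles. Dots are the 4 libraries of a group, AngII_FI 3 is circled, and the line and bars are the mean and SD. In the left panel the 4 saline libraries, at 13.5% to 15.5%, lie above the 8 others.

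The release unit of the SR was the next group. Ryr2, the cardiac ryanodine receptor, had 511, 698, 487 and 620.2 CPM in AngII_FI, 559, 544, 596 and 600.3 CPM in AngII and 685, 565, 669.6 and 766 CPM in saline ventricles. The lowest saline library overlapped both other groups, and the log2 fold change of AngII over saline was -0.22 ± 0.12 (edgeR adjusted p = 0.386). Casq2, the cardiac calsequestrin that buffers calcium inside the SR, had 680.4, 747, 571 and 677 CPM in AngII_FI, 609.9, 646, 755 and 1116 CPM in AngII and 758, 654, 621 and 582 CPM in saline ventricles. One library, AngII 4, was far above the rest and the groups overlapped. It differed by 0.26 ± 0.17 on the log2 scale for AngII over saline (edgeR adjusted p = 0.512), and 0.032 with AngII 4 left out. Hrc encodes the histidine-rich calcium binding protein of the SR lumen. It had 289, 489, 329.9 and 406 CPM in AngII_FI, 317, 275, 337 and 348 CPM in AngII and 425, 339.6, 459 and 469.8 CPM in saline ventricles. Only the highest AngII library and the lowest saline library crossed, and the AngII_FI libraries overlapped both groups. Its log2 fold change was -0.41 ± 0.16 for AngII over saline (edgeR adjusted p = 0.207) and 0.25 ± 0.16 for AngII_FI over AngII (0.626; 0.31 ± 0.16 without AngII_FI 3). Trdn (triadin), Asph (aspartate beta-hydroxylase locus, which also yields junctin) and Srl (sarcalumenin) averaged between 179 and 622 CPM in all groups, with no log2 fold change beyond 0.15 in size in the 3 comparisons when all libraries were kept. Without AngII_FI 3, where Asph was lowest, Asph was at 0.15 ± 0.08 for AngII_FI over AngII and 0.17 ± 0.08 for AngII_FI over saline (edgeR adjusted p = 0.675 and 0.349). Calr, the endoplasmic reticulum chaperone calreticulin, had 299 CPM in AngII_FI 3, the highest of all 12 libraries, and 165 to 239.9 CPM in the others.

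Casq1, the skeletal muscle calsequestrin (chr1:172209894-172219868, minus strand), had the smallest p of the 37 tested genes for AngII over saline. It is a minor transcript here, at 3.39 CPM per kb in AngII_FI, 3.59 in AngII and 2.31 in saline ventricles, against 244 CPM per kb in AngII_FI, 286 in AngII and 239 in saline ventricles for Casq2. The libraries held 5.47, 6.90, 5.50 and 8.61 CPM in AngII_FI, 7.56, 6.85, 6.95 and 6.66 CPM in AngII and 4.94, 4.02, 4.68 and 4.37 CPM in saline ventricles. Both groups with angiotensin II lay wholly above saline and overlapped each other. The log2 fold change was 0.64 ± 0.15 for AngII over saline (interval 0.30 to 0.97, edgeR adjusted p = 0.0526), 0.56 ± 0.15 for AngII_FI over saline (0.104) and -0.08 ± 0.15 for AngII_FI over AngII (0.904). Without AngII_FI 3 the AngII_FI values were 0.63 ± 0.15 over saline (0.0664) and -0.0035 over AngII. The AngII over saline value lies just outside the threshold with edgeR and inside it with DESeq2 (adjusted p = 0.00585), with limma-voom (0.0468), and with edgeR when AngII_FI 3 is left out (0.0304) or AngII_FI 4 is (0.0344). Skeletal muscle markers were near 0 in every library: 10 genes summed to 1.03 to 1.96 CPM in AngII_FI, 1.35 to 1.76 CPM in AngII and 0.776 to 1.52 CPM in saline ventricles, and Myh2, Myod1 and Myog had no count at all. An antisense gene, Gm17224, shares 8.00% of the Casq1 exon length but had at most 22 counts in a library.

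RefSeq promoter windows were available for 25 of the 38 genes. Those of the calsequestrin pair are shown because the skeletal form is the member nearest to a call and the cardiac form is its abundant paralog in the same libraries. Each holds the 250 bases before the RefSeq start (GRCm38.p6), 5′ to 3′ on the gene's strand, Casq1 at chr1:172219896-172220145 (minus) and Casq2 at chr3:102086165-102086414 (plus), with E-box letters CANNTG in capitals.
Casq1: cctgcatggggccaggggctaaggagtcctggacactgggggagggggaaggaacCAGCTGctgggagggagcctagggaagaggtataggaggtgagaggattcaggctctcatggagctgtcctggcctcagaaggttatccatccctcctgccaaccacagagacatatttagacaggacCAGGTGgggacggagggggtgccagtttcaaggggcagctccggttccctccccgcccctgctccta
Casq2: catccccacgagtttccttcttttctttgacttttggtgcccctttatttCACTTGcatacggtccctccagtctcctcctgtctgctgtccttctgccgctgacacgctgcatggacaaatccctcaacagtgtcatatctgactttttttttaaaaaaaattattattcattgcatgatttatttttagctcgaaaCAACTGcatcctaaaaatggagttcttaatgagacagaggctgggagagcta
Both windows hold 2 such matches, and the pattern CANNTG reads the same way on both strands. CANNTG occurs in 67.7% of the 31 windows of these genes and in 66.2% of all 32851 RefSeq windows of this length, so a match is common. GGGCGG (either strand) occurs in 58.1% of the 31 windows and 32.7% of all windows, and TATAAA (either strand) in 6.45% and 12.4%. These are descriptions of letters, and no binding was measured.

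Of the junctophilins, which tie the SR to the surface membrane at the dyad, Jph2 is the cardiac form. It had 283, 353, 265 and 326 CPM in AngII_FI, 243, 248, 297 and 278 CPM in AngII and 246, 232, 263 and 343 CPM in saline ventricles. The groups overlapped throughout, and the log2 fold change was -0.02 ± 0.13 for AngII over saline and 0.20 ± 0.13 for AngII_FI over AngII (edgeR adjusted p = 0.964 and 0.632), the second being 0.27 ± 0.13 without AngII_FI 3. Jph1, the main form of skeletal muscle, averaged 16.8 ± 2.44 CPM in AngII_FI, 17.2 ± 2.72 CPM in AngII and 19.1 ± 1.45 CPM in saline ventricles.

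**Figure D2:**
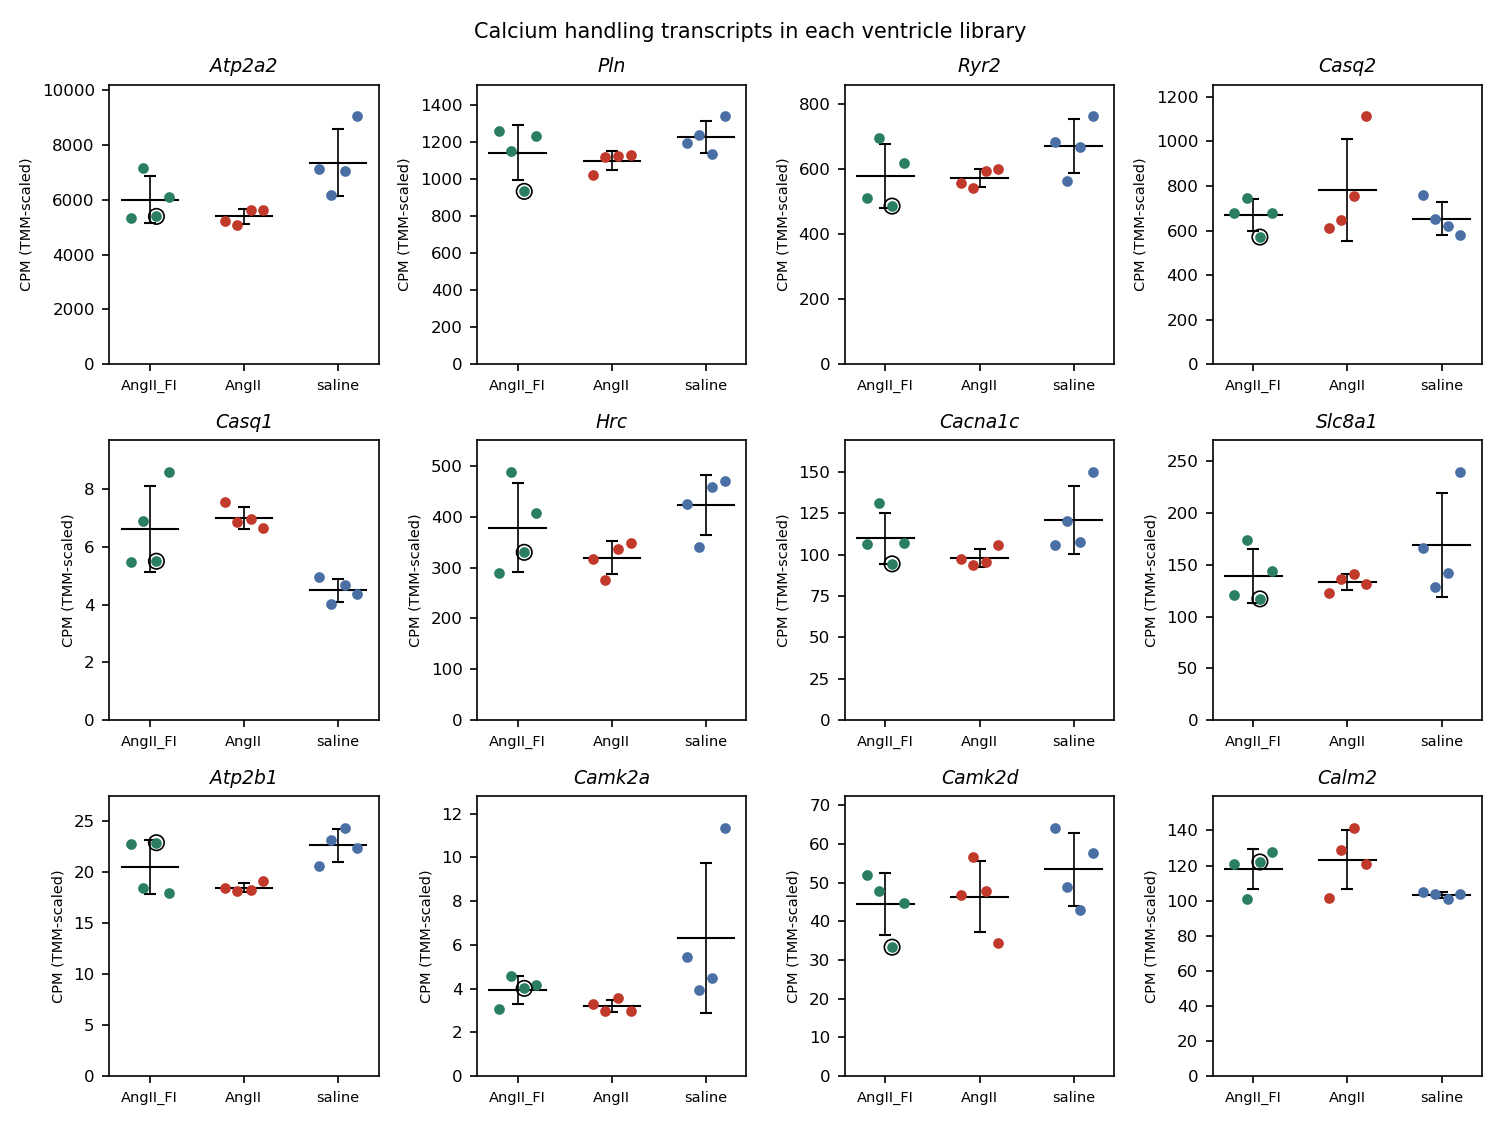
CPM (TMM-scaled) of 12 calcium handling genes in each ventricle library, in AngII_FI, AngII and saline groups from left to right. Dots are libraries, AngII_FI 3 is circled, lines and bars are the mean and SD of 4. AngII lies wholly below saline for Atp2a2, Pln, Atp2b1 and Camk2a and wholly above it for Casq1.

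Among surface calcium channels, Cacna1c encodes the pore of the L-type channel through which the trigger calcium enters. It had 106, 131, 94.4 and 107 CPM in AngII_FI, 97.3, 93.8, 95.4 and 106 CPM in AngII and 106, 120.1, 108 and 150.2 CPM in saline ventricles. Saline 4 was the highest library, and AngII and saline touched at their edges. The log2 fold change of AngII over saline was -0.30 ± 0.12 (edgeR adjusted p = 0.238), and -0.18 with saline 4 left out. Cacna1h, a T-type channel pore that is more active in the fetal heart, had 3.48, 2.74, 3.36 and 3.47 CPM in AngII_FI, 3.08, 3.67, 3.08 and 2.85 CPM in AngII and 3.61, 5.03, 3.16 and 3.86 CPM in saline ventricles. These overlap, at -0.30 ± 0.17 for AngII over saline and 0.04 ± 0.17 for AngII_FI over AngII (edgeR adjusted p = 0.411 and 0.961), the second being 0.02 ± 0.18 without AngII_FI 3. The order per exon length was the same in the 3 groups: Cacna1c at 5.18 CPM per kb in AngII_FI, 4.63 in AngII and 5.70 in saline ventricles, then Cacna1g at 0.706 CPM per kb in AngII_FI, 0.693 in AngII and 0.800 in saline ventricles, Cacna1h at 0.334 CPM per kb in AngII_FI, 0.325 in AngII and 0.401 in saline ventricles and Cacna1d at 0.0675 CPM per kb in AngII_FI, 0.0616 in AngII and 0.0631 in saline ventricles. No library of one of these 4 pores reached the range of the next. Cacnb2, the intracellular beta subunit, averaged 25.5 ± 4.20 CPM in AngII_FI, 23.8 ± 3.75 CPM in AngII and 29.9 ± 7.95 CPM in saline ventricles, with overlap.

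Cacna2d1, the extracellular alpha2-delta subunit (chr5:15934691-16374511, plus strand), differed in 1 library. It had 162, 147, 22.8 and 149 CPM in AngII_FI, 137, 151, 158 and 149.9 CPM in AngII and 149, 134, 140.1 and 136 CPM in saline ventricles. The other 11 libraries lay between 134 and 162 CPM and AngII_FI 3 lay far below them, with 1725 counts against 9362 to 12241. With it the log2 fold change of AngII_FI over AngII was -0.31 ± 0.41, against 0.04 ± 0.08 without that library (edgeR adjusted p = 0.853 and 0.933). The part of the hepatocyte transcripts of that library in this value was not tested. AngII_FI 3 was the lowest of its group for 15 of the 37 tested genes and the highest for 8. Saline 2 was the lowest of its group for 16, so this count does not set AngII_FI 3 apart. Stim1, the SR calcium sensor of store-operated entry, had 14.4 CPM in AngII_FI 3, against 3.73 to 9.79 CPM in the other 11 libraries. Itpr2 was highest there too, at 13.9 CPM.

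**Figure D3:**
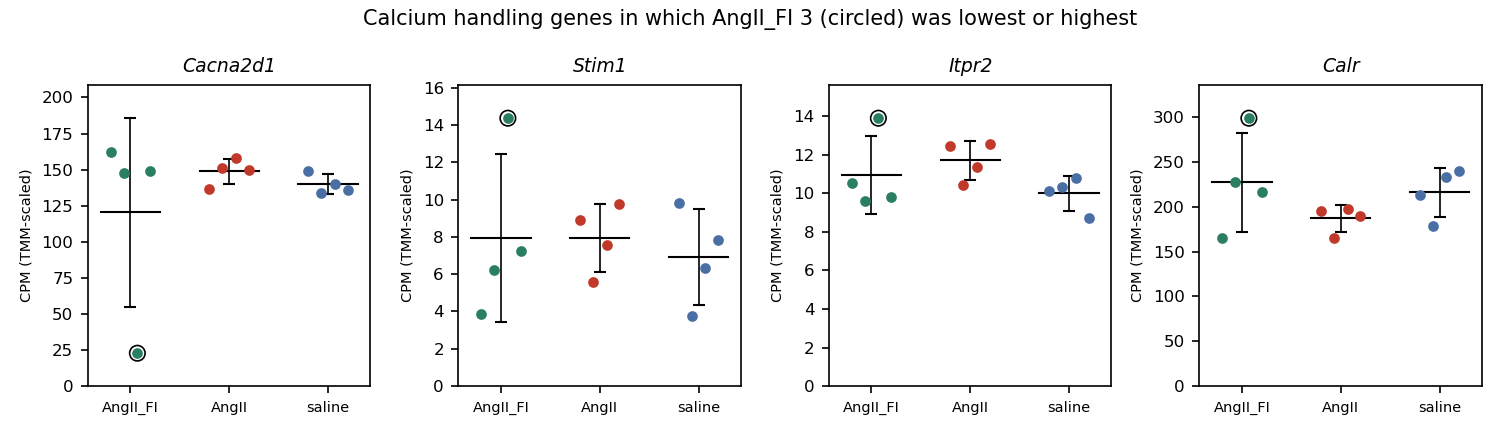
CPM (TMM-scaled) of Cacna2d1, Stim1, Itpr2 and Calr in each library of the AngII_FI, AngII and saline groups. Dots are libraries, lines and bars the mean and SD of 4, and AngII_FI 3, circled, is the lowest of the 12 for Cacna2d1 and the highest for the other genes.

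Calcium leaves the cell through the exchanger and the plasma membrane pumps. Slc8a1, the sodium-calcium exchanger NCX1, had 121, 174, 117 and 144 CPM in AngII_FI, 123, 137, 141 and 131 CPM in AngII and 166, 128, 142 and 240.2 CPM in saline ventricles. Saline 4 stood well above the other saline libraries, and the rest overlapped. The log2 fold change was -0.35 ± 0.18 for AngII over saline and 0.06 ± 0.18 for AngII_FI over AngII (edgeR adjusted p = 0.369 and 0.939). With saline 4 left out the first was -0.13, and without AngII_FI 3 the second was 0.13 ± 0.19. Atp2b1, the plasma membrane pump PMCA1, had 22.7, 18.4, 22.9 and 17.9 CPM in AngII_FI, 18.4, 18.1, 18.3 and 19.1 CPM in AngII and 20.6, 23.1, 24.4 and 22.4 CPM in saline ventricles. The AngII libraries were tightly grouped and all below saline, while AngII_FI split into a pair near AngII and a pair near saline. Its log2 fold change was -0.29 ± 0.10 for AngII over saline and 0.15 ± 0.10 for AngII_FI over AngII (edgeR adjusted p = 0.136 and 0.629), the second being 0.09 ± 0.10 without AngII_FI 3. Atp2b4, PMCA4, had 12.8, 11.4, 12.9 and 12.4 CPM in AngII_FI, 20.9, 17.3, 15.9 and 14.3 CPM in AngII and 12.2, 18.0, 17.7 and 10.6 CPM in saline ventricles. All 4 AngII_FI libraries were below all 4 AngII libraries, and saline overlapped both. The log2 fold change of AngII_FI over AngII was -0.47 ± 0.17 (edgeR adjusted p = 0.432), and -0.49 ± 0.19 without AngII_FI 3 (0.554).

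The IP3 receptors release calcium from internal stores after Gq-coupled receptors, the angiotensin II type 1 receptor among them, are activated. Itpr1 (chr6:108213096-108551109, plus strand) had 21.2, 19.4, 23.3 and 19.8 CPM in AngII_FI, 27.9, 26.3, 25.8 and 24.6 CPM in AngII and 26.0, 28.3, 28.9 and 20.7 CPM in saline ventricles. All AngII_FI libraries were below all AngII libraries, and AngII lay within the range of saline. Its log2 fold change was -0.32 ± 0.11 for AngII_FI over AngII (edgeR adjusted p = 0.411), -0.31 ± 0.11 for AngII_FI over saline (0.167) and 0.01 ± 0.11 for AngII over saline (0.977). Without AngII_FI 3 the first was -0.38 ± 0.11 (0.542) and the second -0.37 ± 0.11 (0.130). Itpr1 led this family per exon length in every group, at 1.14 CPM per kb in AngII_FI, 1.43 in AngII and 1.42 in saline ventricles. Itpr3 was at 0.727 CPM per kb in AngII_FI, 0.798 in AngII and 0.740 in saline ventricles and Itpr2 at 0.740 CPM per kb in AngII_FI, 0.791 in AngII and 0.676 in saline ventricles, with overlapping ranges. Markers of vessel cells, which hold IP3 receptors and PMCA4 as well, were also lower in AngII_FI than in AngII. Smooth muscle and pericyte markers (9 genes) summed to 867 to 1089 CPM in AngII_FI, 1149 to 1152 CPM in AngII and 972 to 1138 CPM in saline ventricles, and endothelial markers (8 genes) to 506 to 668 CPM in AngII_FI, 669 to 876 CPM in AngII and 469 to 755 CPM in saline ventricles. In both lists every AngII_FI library lay below every AngII library, and all 9 and all 8 genes had a log2 fold change below 0 for AngII_FI over AngII, none of them called. Fibroblast markers (8 genes) summed to 983 to 1219.5 CPM in AngII_FI and 1314 to 1423 CPM in AngII ventricles, again without overlap. Of these genes 7 had a log2 fold change below 0 and 1 above, none of them called. Within AngII_FI, library 3 had the lowest sum in each of these lists and the highest Itpr1 and Atp2b4, at 23.3 and 12.9 CPM. The part of these cell markers in the Atp2b4 and Itpr1 values was not tested.

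Store-operated and TRPC channels let calcium in when stores are empty or receptors are active. Orai1, the pore that Stim1 opens, averaged 8.56 ± 0.418 CPM in AngII_FI, 8.39 ± 0.638 CPM in AngII and 8.06 ± 0.807 CPM in saline ventricles, and Trpc1 5.65 ± 0.635 CPM in AngII_FI, 5.64 ± 0.587 CPM in AngII and 6.38 ± 1.09 CPM in saline ventricles, both with overlap in each comparison. Trpc6, a receptor-operated channel, had 0 to 20 counts per library and cannot be compared at this depth. Mcu, the pore of the mitochondrial uniporter, averaged 10.5 ± 1.13 CPM in AngII_FI, 9.30 ± 1.36 CPM in AngII and 11.1 ± 1.42 CPM in saline ventricles, with log2 fold changes of -0.25 ± 0.13 for AngII over saline and 0.18 ± 0.13 for AngII_FI over AngII (edgeR adjusted p = 0.388 and 0.683), the second being 0.16 ± 0.15 without AngII_FI 3.

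**Figure D4:**
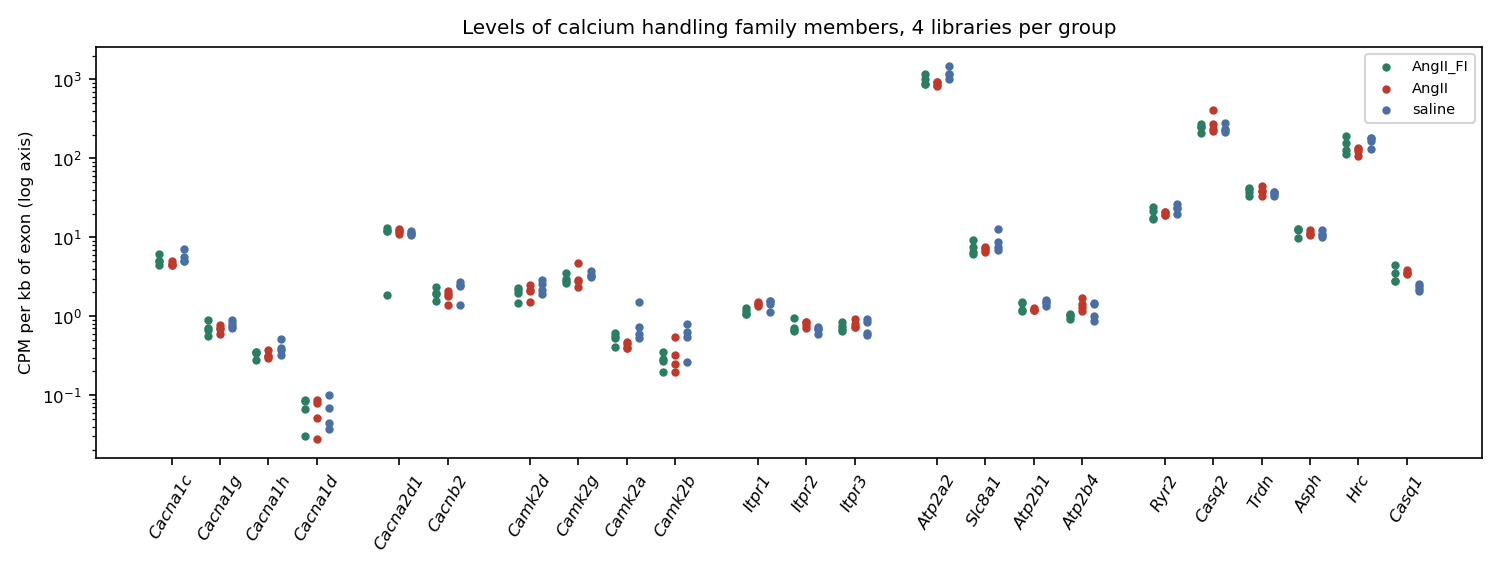
CPM per kb of exon (log axis) for calcium handling families in AngII_FI, AngII and saline ventricles, 1 dot per library. Atp2a2 tops the plot and Cacna1d is lowest. One green dot below the rest is AngII_FI 3 for Cacna2d1.

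Calcium sensors and kinases closed the set. Camk2d, the main cardiac isoform of calmodulin-dependent kinase II, had 52.0, 48.0, 33.3 and 44.7 CPM in AngII_FI, 46.8, 56.7, 47.7 and 34.4 CPM in AngII and 64.3, 49.0, 42.9 and 57.7 CPM in saline ventricles. The groups overlapped, with a log2 fold change of -0.20 ± 0.18 for AngII over saline (edgeR adjusted p = 0.641). Per exon length Camk2g was above it, at 2.97 CPM per kb in AngII_FI, 3.19 in AngII and 3.37 in saline ventricles against 1.98 CPM per kb in AngII_FI, 2.06 in AngII and 2.38 in saline ventricles for Camk2d, whose gene model is the longer by far and sums all isoforms. Camk2a, the neuronal isoform, had 3.05, 4.56, 4.01 and 4.15 CPM in AngII_FI, 3.30, 3.00, 3.55 and 2.98 CPM in AngII and 5.46, 3.95, 4.47 and 11.4 CPM in saline ventricles. AngII lay below saline, and saline 4 stood far above all other libraries. The log2 fold change of AngII over saline was -0.98 ± 0.29 (edgeR adjusted p = 0.105, DESeq2 0.0196), but -0.53 without saline 4 by edgeR. Camk2b had 1.79, 2.44, 2.60 and 3.17 CPM in AngII_FI, 4.93, 2.28, 2.98 and 1.81 CPM in AngII and 2.42, 5.75, 5.01 and 7.29 CPM in saline ventricles. Saline 1 lay among the libraries with angiotensin II and the other saline libraries above them. Its log2 fold change was -0.77 ± 0.36 for AngII over saline and -1.03 ± 0.36 for AngII_FI over saline (edgeR adjusted p = 0.303 and 0.171), the second being -1.05 ± 0.39 without AngII_FI 3. Calm2, one of the genes that encode calmodulin, had 121, 101, 122 and 127 CPM in AngII_FI, 102, 129, 142 and 121 CPM in AngII and 105, 104, 101 and 104 CPM in saline ventricles. Saline libraries were close together, and AngII 1 and AngII_FI 2 lay among them (0.25 ± 0.10 for AngII over saline, edgeR adjusted p = 0.222). Calmodulin genes have close copies, and the handling of reads that map to several places is not given in the sources used here. Calm3 averaged 102 ± 7.55 CPM in AngII_FI, 102 ± 9.97 CPM in AngII and 105 ± 2.91 CPM in saline ventricles. S100a1, a calcium sensor that binds SERCA2 and the ryanodine receptor, was the second highest of the set per exon length, at 634 CPM per kb in AngII_FI, 566 in AngII and 543 in saline ventricles. Its libraries held 458, 425, 357 and 521 CPM in AngII_FI, 387, 358, 400.5 and 426 CPM in AngII and 374, 414, 372 and 347 CPM in saline ventricles. With AngII_FI 3 left out the AngII_FI libraries lay above saline, at 0.31 ± 0.09 on the log2 scale (edgeR adjusted p = 0.127), and with it the groups overlapped (0.23 ± 0.11, 0.307).

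Across the set, the question of the AngII to saline comparison was which calcium handling transcripts differ under angiotensin II. By edgeR none of the 37 tested genes passed, where 388 of 17376 genes tested did (2.23%). DESeq2 called 3, Casq1 higher and Atp2a2 and Camk2a lower, against 6.45% of the genes it tested, and limma-voom called Casq1, against 2.65% of all genes. Leaving out AngII_FI 3 or AngII_FI 4 also brought Casq1 past the threshold with edgeR, where 3.86% and 1.52% of all genes passed, as did a filter of at least 1 CPM in 4 libraries (4.12%) and a fit of these 2 groups alone (3.38%). At an unadjusted edgeR p under 0.05 there were 7 of 37, or 18.9%, against 16.8% of all genes: Casq1 and Calm2 higher, and Atp2a2, Atp2b1, Cacna1c, Camk2a and Hrc lower. The groups did not overlap for 5 genes (Casq1 higher; Atp2a2, Atp2b1, Camk2a and Pln lower), or 13.5%, the same share as among all genes. The median log2 fold change was -0.05, against 0.00 for all genes, with 16 genes above 0 and 21 below. Saline 4 was the highest of its group for 16 of the 37 genes, among them Atp2a2, Ryr2, Cacna1c, Slc8a1 and Hrc, and the lowest for 9. It also had the highest cardiomyocyte marker sum of its group (58527 CPM, against 45932 to 51618 CPM in the other saline libraries) and the lowest endothelial sum (469 CPM). Fibroblast markers summed to 1314 to 1423 CPM in AngII and 809 to 1061 CPM in saline ventricles, and macrophage markers (8 genes) to 297 to 334 CPM in AngII and 187 to 222 CPM in saline ventricles, with no overlap in either list. The sums did not overlap in 3 more lists. The smooth muscle and pericyte sum was higher in AngII (values above). Of its 9 genes, 7 had a log2 fold change above 0 and 2 below, and 1 was called higher. The sum of pacemaker and conduction markers (8 genes) was also higher, at 109 to 111 CPM in AngII and 86.9 to 101 CPM in saline ventricles. Of the 6 tested, 4 had a log2 fold change above 0 and 2 below, with none called. The atrial sum was lower in AngII (values above), with Kcnj3 and Sbk2 called lower and Dkk3 called higher. The part of these cell markers in the values of the set was not tested.

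For AngII_FI against AngII, the question was whether FI changed these transcripts under angiotensin II. None of the 37 genes passed by edgeR, DESeq2 or limma-voom, and of all 17376 genes edgeR called 0 (0%), limma-voom 0 and DESeq2 42 (0.247% of the genes it tested). Without AngII_FI 3 edgeR again called none of the 37, where 0.00565% of all genes passed. At an unadjusted edgeR p under 0.05 there were 2 of 37, Atp2b4 and Itpr1, both lower, or 5.41%, against 9.95% of all genes. The same 2 were the ones without overlap, against 5.40% of all genes. Without AngII_FI 3 the groups did not overlap for 5 genes (13.5%, against 9.66% of all genes): Asph, Cacna1c and Pln were higher and Atp2b4 and Itpr1 lower. The median log2 fold change was 0.03, against 0.02 for all genes, and 0.05 without AngII_FI 3, against 0.00. With that library left out, summed cardiomyocyte markers were at 51491 to 59995 CPM in AngII_FI, all above the 41312 to 49811 CPM of AngII ventricles. The part of these markers in the values of the set was not tested.

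AngII_FI against saline shares its saline libraries with the first comparison. None of the 37 genes passed by edgeR, where 170 of all genes did (0.978%), nor did any without AngII_FI 3 (1.24% of all genes), and DESeq2 called Casq1 (adjusted p = 0.0266), against 4.97% of the genes it tested. At an unadjusted edgeR p under 0.05 there were 5 of 37, or 13.5%, against 17.3% of all genes: Casq1 higher, and Atp2a2, Camk2a, Camk2b and Itpr1 lower. Atp2a2 had a log2 fold change of -0.29 ± 0.12 (edgeR adjusted p = 0.247), -0.25 ± 0.13 without AngII_FI 3 and -0.18 without saline 4. Casq1 was the one gene without overlap, where 9.31% of all genes had none. Without AngII_FI 3 S100a1 joined it, against 14.9% of all genes.

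**Figure D5:**
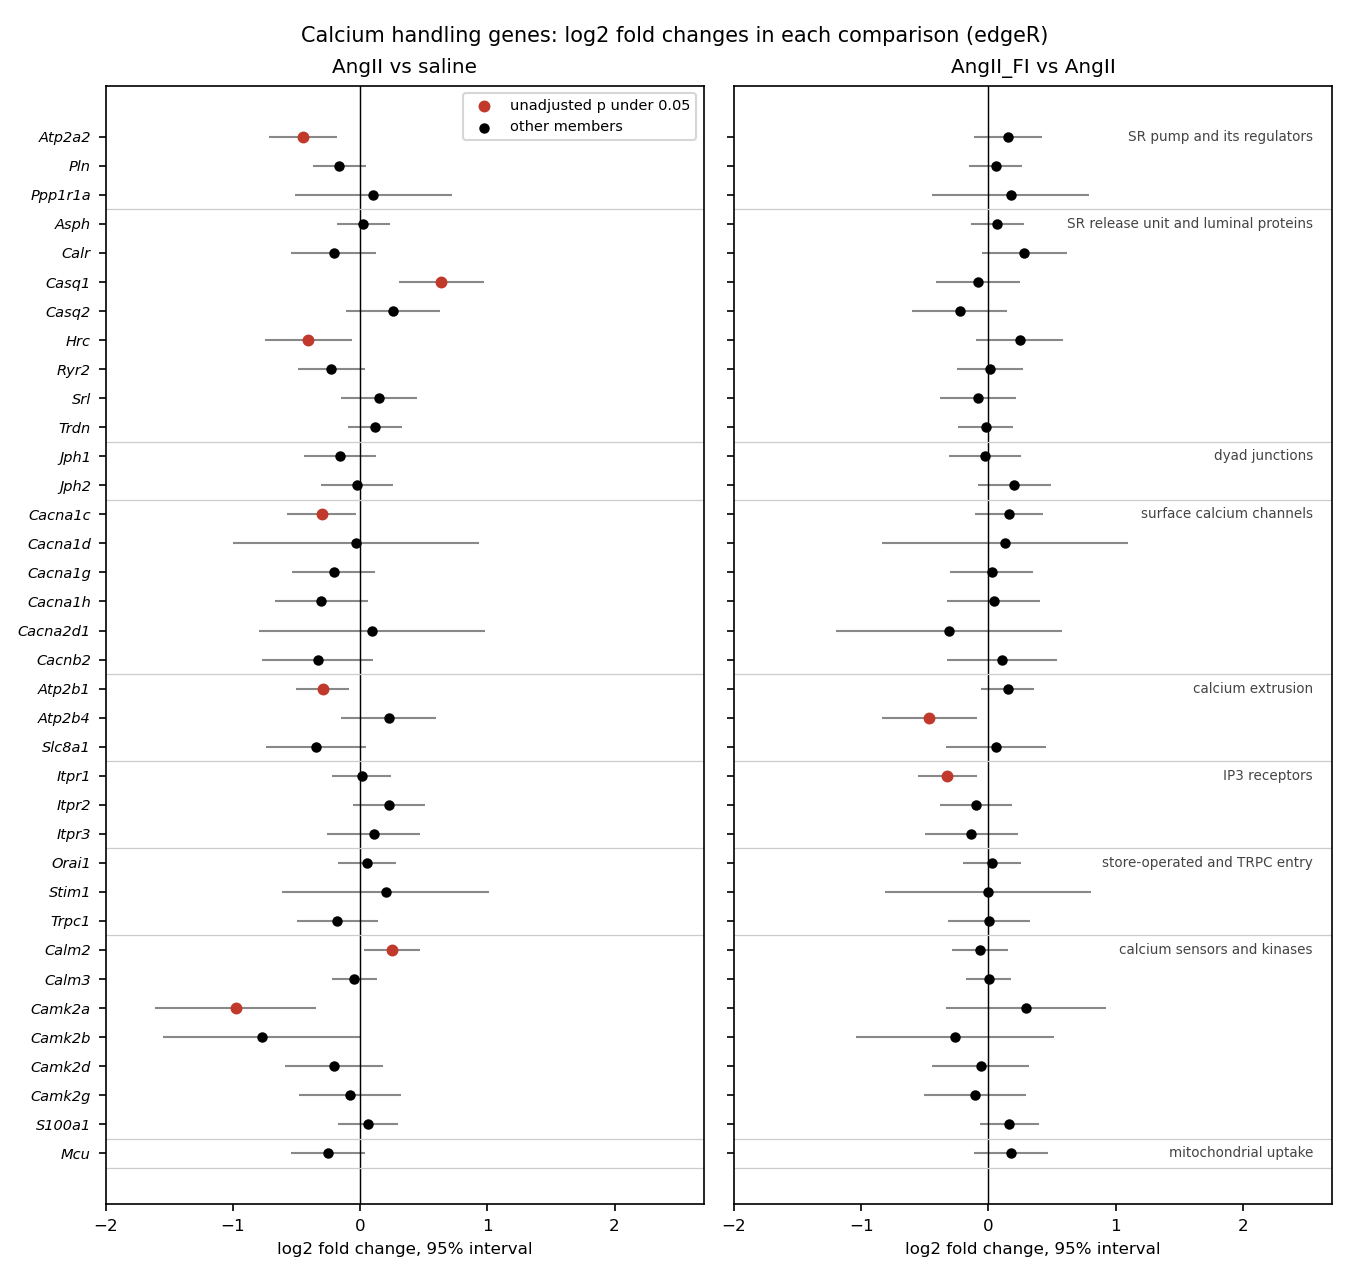
Log2 fold changes with 95% intervals (edgeR) for 36 tested calcium handling genes, grouped by role: AngII over saline on the left and AngII_FI over AngII on the right. Red points have an unadjusted p under 0.05 and black points do not. Trpc6, with 0 to 20 counts, is left out because its interval runs past the axis.

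Further genes of calcium handling were taken from a list of 84, of which 83 were in the table and 75 were tested. For AngII over saline 3 rose and 1 fell by edgeR, against 1.57% and 0.662% of all genes. DESeq2 called 7 higher and 3 lower (6.45% of the genes it tested, both directions together), adding Bin1, Cacnb3, Mcub and S100a4 above saline and Canx and Vdac1 below it. Limma-voom called the same 3 higher and none lower (2.65% of all genes). S100a10, the annexin A2 partner, had 33.0, 41.4, 43.5 and 53.2 CPM in AngII and 18.2, 21.3, 24.9 and 22.9 CPM in saline ventricles (0.97 ± 0.15, edgeR adjusted p = 0.0121). S100a11, another annexin-binding S100 protein, rose by 0.85 ± 0.16 on the log2 scale (0.0205) and Rcn3, a calcium-binding protein of the endoplasmic reticulum, by 0.53 ± 0.13 (0.0499). Cacna1s, the L-type pore of skeletal muscle, fell, with 3.93, 3.01, 3.47 and 3.85 CPM in AngII and 4.87, 5.20, 6.93 and 8.92 CPM in saline ventricles (-0.86 ± 0.20, 0.0460; limma-voom 0.0513). The groups did not overlap for any of these 4 genes. S100a10 kept its call with each of the 12 libraries left out in turn, S100a11 in 7 of 12, and Cacna1s and Rcn3 only without AngII_FI 3. At an unadjusted p under 0.05 the list had 28.0% of its tested genes, against 16.8% of all, and its median log2 fold change was 0.03. S100a10, S100a11 and Rcn3 are expressed in cells other than cardiomyocytes too. In this comparison the fibroblast and macrophage sums above were also higher in AngII, with 5 of 8 fibroblast and 5 of 8 macrophage markers called higher. The part of these cell markers in the values of the list was not tested.

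For AngII_FI over AngII none of the 75 passed. The 4 smallest p were those of Tmem38b, an SR counter-ion channel (25.2, 30.7, 34.6 and 26.7 CPM in AngII_FI and 23.4, 24.6, 24.8 and 23.0 CPM in AngII ventricles, 0.29 ± 0.09 on the log2 scale, edgeR adjusted p = 0.411), Atp2c1, the Golgi calcium pump (-0.20 ± 0.08, 0.446), Vdac1, the outer mitochondrial channel (0.18 ± 0.07, 0.468), and Cacna1s (0.47 ± 0.20, 0.475). Without AngII_FI 3 these log2 fold changes were 0.20 ± 0.09 for Tmem38b, -0.16 ± 0.08 for Atp2c1, 0.22 ± 0.08 for Vdac1 and 0.48 ± 0.21 for Cacna1s. For AngII_FI over saline 1 of 75 passed by edgeR, where 0.978% of all genes did. DESeq2 called 3, S100a10, S100a4 and S100a11, all higher, against 4.97% of the genes it tested. The edgeR call was S100a10, at 42.0, 32.1, 46.1 and 42.8 CPM in AngII_FI ventricles (0.90 ± 0.15, edgeR adjusted p = 0.0240). S100a4 (0.72 ± 0.20), S100a11 (0.55 ± 0.16) and Prkaca (-0.23 ± 0.09), the catalytic subunit of protein kinase A, came next and did not pass (edgeR adjusted p = 0.103, 0.112 and 0.205). Without AngII_FI 3 edgeR called 2, S100a10 (0.83 ± 0.16, edgeR adjusted p = 0.0284) and S100a4 (0.86 ± 0.17, 0.0339), against 1.24% of all genes, and S100a11 and Prkaca were at 0.64 ± 0.15 and -0.21 ± 0.10. Slc8b1, the mitochondrial sodium-calcium exchanger, had 23.7 CPM in AngII_FI 3 and 6.31 to 9.92 CPM in the other libraries; it was picked out after its values were seen.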

How the data were processed

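Raw read counts for each gene, as the authors deposited them, were the starting point; per the labels the RNA came from ventricles of wild-type mice. The submitters' processing notes name the build GRCm38 and the tools HISAT, DESeq 1.8.3 and featureCounts 1.5.0-p3, without saying how each was used. The strand setting and the handling of multiply mapped reads (both not given in the sources used here) leave overlapping genes uncertain. Coordinates and exon lengths came from GENCODE M21 (GRCm38), which held 99.7% of the IDs.

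Genes were filtered with filterByExpr, scaled by TMM and tested by quasi-likelihood in edgeR 4.0.16 under R 4.3.3. The 12 libraries were fitted together, with 3 group means and no covariate. Adjusted p-values are Benjamini-Hochberg over 17376 genes, with a threshold of 0.05. CPM are counts over the TMM-scaled library size. Ratios were compared by exact permutation of libraries (Python 3.11.15). DESeq2 1.42.0, limma-voom (limma 3.58.1), other scalings and filters, a replicate block, and each library left out were alternatives; leaving out the AngII_FI and AngII libraries of number 3 together was chosen after seeing the data. The procedure was tested on simulated counts. Of 53 genes changed 1.5-fold it recovered 6 for AngII over saline, 5 for AngII_FI over AngII and 1 for AngII_FI over saline. Of 77 genes changed 2-fold it recovered 27, 25 and 26. Of 70 genes changed 4-fold it recovered 50, 52 and 52. Changes of 1.5-fold and 2-fold were thus mostly missed, and a gene that did not pass may still differ by that much or more. Replicate numbers were not used as pairs in the main fit.

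The genes, lists and tests were chosen with earlier results of these data known. Values in every library are given for a core of 12 genes and for any gene with an unadjusted edgeR p under 0.05 in a comparison; Cacna2d1, Stim1, Itpr2, Calr and Slc8b1 are singled out after their values were seen. Of the 84 further genes, up to 4 per comparison are named, by p.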

Additional observations from a re-analysis of the deposited data

Results flagged for a closer look

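A library was marked where its distance to the nearest of the other 3, over the range of the group, exceeded Dixon's 95% critical value. This was met in 7 of 113 groups of values, and chance marks about 1 in 20.

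Cacna2d1, the alpha2-delta channel subunit, was at 22.8 CPM in AngII_FI 3, against 147 to 162 CPM in the other AngII_FI libraries. Asph, the triadin partner locus, was at 158 CPM in AngII_FI 3, against 198 to 205 CPM in the others. That library also held the hepatocyte transcripts.

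Cacna1h was at 2.74 CPM in AngII_FI 2, against 3.36 to 3.48 CPM in the other AngII_FI libraries. Mcu was at 8.84 CPM in AngII_FI 1, against 11.0 to 11.2 CPM in the others. Pln was at 1019 CPM in AngII 1, against 1120.0 to 1126 CPM in the other AngII libraries. Sln was at 0.118 CPM in AngII_FI 2 with 0 in the other AngII_FI libraries, and at 0 in saline 1 with 0.0686 to 0.0715 CPM in the other saline libraries, all of it within 8 counts.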

How the results depend on the processing

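The number of genes of the set called for AngII over saline, 0 by edgeR with TMM, became 3 with DESeq2 and 1 (Casq1) with limma-voom, with a filter of at least 1 CPM in 4 libraries, and with only the 2 groups fitted; with 1 library left out it was 0 to 1. For AngII_FI over saline it became 1 with DESeq2. It stayed 0 for AngII_FI over AngII under every alternative run. Correlations of same-numbered libraries were -0.057 to 0.105, the highest for AngII 3 and AngII_FI 3. Those of libraries with different numbers were -0.08 to 0.079. The main fit did not use the replicate numbers as pairs. With the replicate block, 0 genes of the set were called in each comparison; the Atp2a2 to marker ratio kept its differences of -0.28 for AngII and -0.35 for AngII_FI against saline, with exact p = 0.125 for both, the smallest that sign flips of 4 pairs can give. With the median marker in place of the sum, AngII_FI against saline gave -0.34 (exact permutation p = 0.0571). With 1 library left out these differences were -0.31 to -0.24 and -0.40 to -0.31, and 3 against 4 libraries cannot go below 0.0571. Values near 0 changed sign. Library totals in place of TMM gave -0.025 for Cacna1h, -0.013 for Pln, -0.059 for Ryr2 and -0.0056 for Slc8a1 (AngII_FI over AngII) and -0.015 for Casq2 (AngII_FI over saline), and limma-voom -0.0033 for Ryr2. With 1 library left out, AngII over saline ranged over -0.082 to 0.068 for Itpr1 and -0.092 to 0.11 for Jph2. AngII_FI over AngII ranged over -0.010 to 0.12 for Cacna1h, -0.15 to 0.010 for Calm2, -0.44 to 0.081 for Camk2b, -0.18 to 0.053 for Camk2d, -0.092 to 0.084 for Ryr2 and -0.064 to 0.13 for Slc8a1, and Camk2d was at 0.068 without both libraries of number 3. AngII_FI over saline ranged over -0.024 to 0.11 for Casq2, and the Slc8a1 to Atp2a2 difference over -0.022 to 0.11. The causes were not tested.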
